A study of Mus musculus with 8 samples.

Results

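Replication-dependent histone genes are the 70 mouse genes whose symbols begin with Hist1h, Hist2h, Hist3h or Hist4h. All 70 are among the 53465 genes counted in the fibroblast libraries, and 67 are among the 31053 genes counted in the T cell line libraries. By class they comprise 6 linker histone (H1), 20 H2A, 19 H2B, 12 H3 and 13 H4 genes. By location, 56 belong to the Hist1 cluster on chromosome 13, 10 to Hist2 on chromosome 3, 3 to Hist3 on chromosome 11, and 1, Hist4h4, lies on chromosome 6. Of the 70, 67 are annotated as protein coding and 3 as pseudogenes (Hist1h2aj, Hist1h2al and Hist3h2bb-ps), and 65 consist of 1 exon block. Total RNA was sequenced from 8 libraries in 4 groups of 2. NIH-3T3 fibroblasts, an established mouse embryonic line, were labelled as induced for TCF-1, the T cell transcription factor encoded by Tcf7, or as normal, wild type and untreated. The file headers name Cas9, an empty guide vector and 72 hours in all 4 of the 3T3 libraries, and doxycycline in the induced libraries alone, so that TCF-1 and doxycycline cannot be told apart. Scid.adh, a mouse thymocyte line used as a model of the DN3 stage, was labelled as Tcf7-/- or as wild type carrying an empty vector. Whether both libraries of a group stem from separate cultures or clones is not stated in the labels, so each p-value measures the spread between these libraries alone.

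Core histones H2A, H2B, H3 and H4 wrap DNA into nucleosomes, and linker histone H1 binds where DNA enters and leaves the nucleosome. Cells make most of these proteins during S phase, from clustered genes without introns whose messages end in a conserved stem-loop in place of a poly(A) tail. The stem-loop is bound by SLBP, and the U7 small nuclear RNA particle guides the cut that forms the end of the message. Libraries from total RNA capture these messages, which libraries selected for poly(A) mostly miss. In a population of cells, a change in the share of cells in S phase and a change in histone RNA per S phase cell cannot be told apart.

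The stem-loop was looked for in the annotated sequence downstream of the stop codon, since it is the feature these messages share. Of 52 members with at least 21 annotated bases after the stop, 44 held it, starting 22 to 59 bases after the stop. Its first arm followed class: all 33 hits among H1, H2A, H2B and H3 genes began GGCTC, and all 11 hits among H4 genes began GGCCC or GGTCC. Of the 44, 26 shared 1 core, which Hist1h1e carries. Shown are 1 member for each of the 6 cores, from GENCODE M21 transcripts, with the 16-base stem-loop in capitals.
Hist1h1e: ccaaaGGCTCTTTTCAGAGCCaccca
Hist1h3c: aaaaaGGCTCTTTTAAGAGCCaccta
Hist2h2ac: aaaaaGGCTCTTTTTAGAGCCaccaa
Hist1h4h: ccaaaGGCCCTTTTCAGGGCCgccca
Hist2h4: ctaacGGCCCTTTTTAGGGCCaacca
Hist1h4j: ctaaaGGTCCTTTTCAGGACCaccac

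Promoter windows of RefSeq on GRCm38.p6, from 250 bases before to 50 bases after the start, matched 61 of the 70 members. CCAAT, searched on both strands, stood in all 49 windows of the H1, H2A, H2B and H3 genes and in 3 of 12 H4 windows, against 37.9% of 27025 promoters, 1 for each RefSeq gene. TATAAA stood in 34 of the 61 members' windows, against 14.2% of all promoters. The octamer ATTTGCAT occurred in 7 of 18 H2A and 6 of 16 H2B windows and in no window of the other classes, against 1.75% of all promoters. AAACACA, known as the H1 box, stood in 4 of 5 H1 windows, against 7.14% of all promoters. It also stood in 2 of 18 H2A and 2 of 16 H2B windows (11.1% and 12.5%) and in no H3 or H4 window. Of these sites, 1 is shared by Hist1h2aa and Hist1h2ba. CTTTGAT, the core that TCF and LEF factors recognise, stood in 4 of 61 windows (6.56%, against 3.72% of all promoters), 2 of them H2A and 2 H2B. Windows of neighbouring genes share sequence: 20 of the 61 overlap another member's window. The 4 windows with CTTTGAT hold 3 distinct sites, 1 of them shared by Hist1h2ad and Hist1h2bf, and the 13 with the octamer hold 10 distinct sites, of which 3 are each shared by an H2A and an H2B gene. Shown are the 250 bases before the start of an H1, an H3 and an H4 gene, the classes whose changes are described next, with any of these motifs in capitals on either strand. Hist1h1e (chr13:23622559-23622808, minus strand) holds an H1 box, CCAAT and TATAAA, Hist1h3h (chr13:21717378-21717627, plus strand) holds CCAAT and TATAAA, and Hist1h4k (chr13:21750554-21750803, minus strand) holds TATAAA without CCAAT.
Hist1h1e: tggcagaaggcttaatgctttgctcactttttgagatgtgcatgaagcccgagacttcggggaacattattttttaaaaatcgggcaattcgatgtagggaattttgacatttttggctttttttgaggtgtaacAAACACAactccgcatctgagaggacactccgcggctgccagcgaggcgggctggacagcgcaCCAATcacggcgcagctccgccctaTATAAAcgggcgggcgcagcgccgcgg
Hist1h3h: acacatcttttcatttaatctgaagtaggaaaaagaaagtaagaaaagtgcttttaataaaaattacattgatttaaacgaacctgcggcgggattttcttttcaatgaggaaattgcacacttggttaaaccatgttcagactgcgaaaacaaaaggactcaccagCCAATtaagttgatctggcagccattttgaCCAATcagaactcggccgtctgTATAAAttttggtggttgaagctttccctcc
Hist1h4k: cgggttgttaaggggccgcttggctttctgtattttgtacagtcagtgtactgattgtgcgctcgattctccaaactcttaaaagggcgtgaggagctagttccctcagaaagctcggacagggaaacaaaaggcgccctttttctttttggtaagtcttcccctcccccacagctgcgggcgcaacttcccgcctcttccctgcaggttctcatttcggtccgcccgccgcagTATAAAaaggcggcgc

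Gene counts summed to between 13850213 and 17523677 in the 3T3 libraries and between 7740198 and 10392402 in the Scid.adh libraries, where both knockout libraries were shallower than both empty vector libraries. Values are CPM, gene counts scaled to the TMM-adjusted size of each library. Tcf7 had 946 and 972 CPM in the induced libraries, against 14.5 and 14.6 CPM in the normal libraries. In Scid.adh, Tcf7 had 646 and 624 CPM in the knockout libraries, against 1318 and 1325 CPM in the empty vector libraries, so that counts remained on the gene in the knockout. All 10 fibroblast markers exceeded a mean of 1 CPM in 3T3, as did 11 of 12 T lineage markers in Scid.adh, and the 3 B lineage markers summed to at most 1.06 CPM in any library. Summed T lineage markers in Scid.adh were 4039 to 4180 CPM in the knockout libraries and 5982 to 6098 CPM in the empty vector libraries. Of the fibroblast markers, 6 of 10 exceeded a mean of 1 CPM in Scid.adh, with sums of 377 to 410 CPM in the knockout libraries and 678 to 717 CPM in the empty vector libraries. In 3T3, fibroblast markers summed to 26056 to 26151 CPM in the induced libraries and 29373 to 30042 CPM in the normal libraries. Of the T lineage markers, 4 of 12 exceeded a mean of 1 CPM in 3T3, with sums of 169.8 to 174 CPM in the induced libraries and 108 to 118 CPM in the normal libraries. Thy1 stood in both the T lineage and the fibroblast list, so its counts enter both sums in each line. The part of these marker differences in the histone results was not tested.

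Histone genes took a larger share of all gene counts in Scid.adh than in 3T3, with different gene tables behind the shares. In 3T3 they held 0.131% and 0.128% of counts in the induced libraries, against 0.119% and 0.117% in the normal libraries. In Scid.adh they held 1.19% and 1.09% in the knockout libraries, against 1.04% and 1.03% in the empty vector libraries. H1 genes, few in number, supplied the largest share of these counts of any class in every library. Of the summed CPM of all members, 5 genes held 48.2% in 3T3 and 42.1% in Scid.adh, where all 5 were H1 genes.

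The H1 counts were divided differently among the H1 genes in each line. Hist1h1a, which encodes the subtype H1.1, made up 2.12 ± 0.0009% of H1 counts in the induced libraries and 1.79 ± 0.19% in the normal libraries (SD, n = 2 each). In Scid.adh it made up 15.3 ± 0.54% in the knockout libraries and 15.4 ± 0.044% in the empty vector libraries. Hist1h1c, which encodes H1.2, made up 33.1 ± 0.42% of H1 counts in induced 3T3 and 36.1 ± 0.090% in normal 3T3, but 17.3 ± 0.21% in the Tcf7 knockout and 17.3 ± 0.39% with the empty vector. Hist1h1t, the testis H1 gene, held at most 0.0416% of H1 counts in any group. Per kilobase of exon, the H1 genes Hist1h1c, Hist1h1e and Hist1h1b were at 116, 87.5 and 84.5 CPM over the 4 libraries of 3T3, and Hist1h1b and Hist1h1a were at 1043 and 953 CPM in Scid.adh. The order changed when the CPM of the whole gene, with reads outside the coding part included, was divided by kilobases of coding sequence. Hist1h1c (284 CPM) and Hist1h1e (256 CPM) then led in 3T3, and Hist1h1d (1822 CPM) and Hist1h1e (1672 CPM) led in Scid.adh. The annotated exon of Hist1h1d is 7425 bases long, of which 666 are coding.

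**Figure D1:**
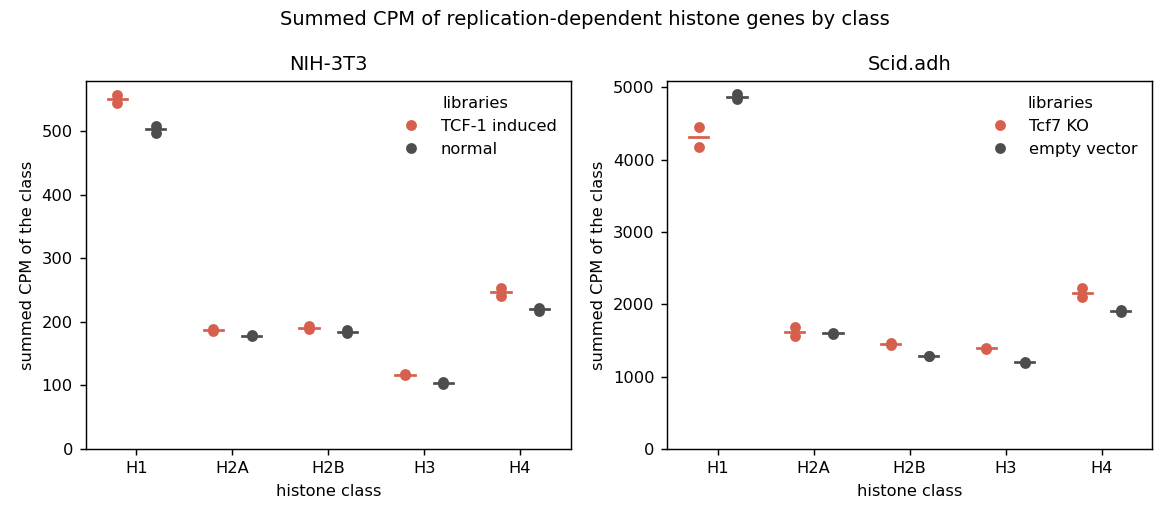
Summed CPM of each histone class (vertical axis, from 0) in every library, with a short line at the mean of the 2 libraries; NIH-3T3 on the left and Scid.adh on the right. H1 sums were 4455 and 4176 CPM in the Tcf7 KO libraries, below the 4904 and 4839 CPM of the empty vector libraries, while the H3 sums of the Tcf7 KO libraries, 1400 and 1376 CPM, lay above 1193 and 1197 CPM.

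The first comparison addressed what TCF-1 induction does in fibroblasts. Of the 60 members tested in 3T3, 12 rose and none fell (edgeR quasi-likelihood test, Benjamini-Hochberg adjustment over all genes, adjusted p under 0.05). Among all 18185 genes tested, 18.5% rose and 18.3% fell, so that the share of members that rose (20.0%) was near that of all genes. At an unadjusted p under 0.05, 17 members were higher and 0 lower. The share of all genes at that threshold was not computed, so this count has no background to stand against. The members' median log2 fold change was 0.15, against 0.00 over all genes. All classes together summed to 1304 and 1282 CPM in the induced libraries and 1200 and 1178 CPM in the normal libraries, a fold of 1.09. The groups did not overlap in 35 of the 60 members with the induced libraries higher, against 32.4% of all genes, and in 5 with them lower, against 32.7%.

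Of the 5 H1 genes tested, 4 rose, against 18.5% of all genes and 25.8% of the other genes within their CPM range. Hist1h1e (H1.4) had 184 and 182 CPM in the induced libraries, against 155 and 155 CPM in the normal libraries (log2 fold change 0.24, SE 0.04, adjusted p = 6.19e-06 by edgeR's quasi-likelihood test). It was the only member whose call was kept under every alternative setting tried, apart from a threshold of 1.5-fold that no member passed. Of its exon bases, 25.7% also lie in the exons of Hist1h2be and Gm11398 on the same strand. Hist1h1a had 11.8 and 11.5 CPM in the induced libraries, against 9.76 and 8.21 CPM in the normal libraries (log2 fold change 0.38, SE 0.12, adjusted p = 0.0105 by edgeR). Hist1h1b and Hist1h1d also rose, with log2 fold changes of 0.18 and 0.14. Hist1h1c, which drew the most counts of the members in 3T3, had 182 and 182 CPM in the induced libraries, against 183 and 179.8 CPM in the normal libraries, and did not pass the test (log2 fold change 0.01).

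Core histone genes rose in 8 of 55 tested, 5 of them H4 genes. This share, 14.5%, was below the 18.5% of all genes and the 16.9% of other genes within their CPM range. Hist1h4j had 7.77 and 5.62 CPM in the induced libraries, against 4.94 and 4.42 CPM in the normal libraries (log2 fold change 0.54, SE 0.16, adjusted p = 0.00781 by edgeR). Hist1h4h had 26.7 and 26.6 CPM in the induced libraries, against 22.0 and 21.3 CPM in the normal libraries, and Hist4h4 had 33.9 and 32.7 CPM in the induced libraries, against 28.3 and 29.2 CPM in the normal libraries, with log2 fold changes of 0.30 and 0.21. Hist1h4d, which drew the most counts of the H4 genes in both lines, had 81.4 and 81.2 CPM in the induced libraries, against 73.6 and 73.8 CPM in the normal libraries (log2 fold change 0.14). The induced libraries were the higher ones in each of these genes, with no overlap. Of the other classes, Hist2h3c1, an H3 gene, had 3.12 and 4.25 CPM in the induced libraries, against 2.00 and 2.18 CPM in the normal libraries (log2 fold change 0.79), and all its exon bases lie within the exons of Gm20634. Hist1h2bl, an H2B gene, had 4.06 and 3.46 CPM in the induced libraries, against 2.75 and 1.90 CPM in the normal libraries (log2 fold change 0.71), and Hist2h2ac, an H2A gene, had 16.4 and 17.3 CPM in the induced libraries, against 13.3 and 13.7 CPM in the normal libraries (log2 fold change 0.31).

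The core genes with many counts outside H4 did not pass the test in 3T3. Hist1h2ac had 28.3 and 25.2 CPM in the induced libraries, against 27.5 and 28.6 CPM in the normal libraries. Hist1h2bc had 33.2 and 33.4 CPM in the induced libraries, against 30.3 and 30.4 CPM in the normal libraries. Hist1h3b had 23.3 and 22.6 CPM in the induced libraries, against 21.9 and 21.1 CPM in the normal libraries, and Hist1h3e had 20.1 and 17.0 CPM in the induced libraries, against 15.9 and 17.0 CPM in the normal libraries. Their log2 fold changes were -0.06, 0.13, 0.10 and 0.18. DESeq2 called 1 member higher (1.67%, against 10.9% of all genes). Leaving out normal replicate 1 or replicate 2 gave the members a median log2 fold change of 0.15 or 0.14.

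**Figure D2:**
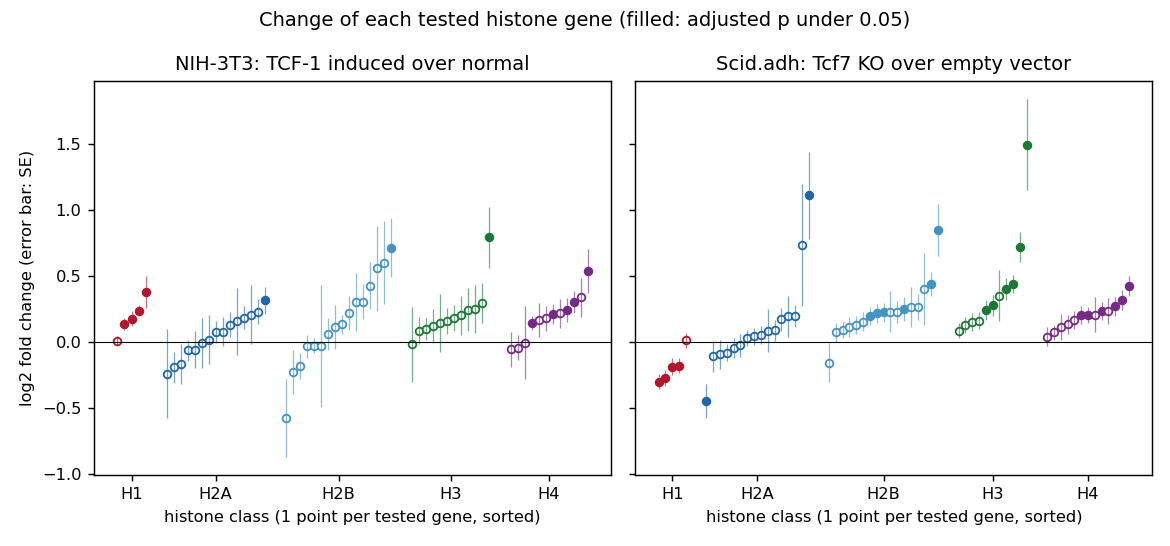
Log2 fold change of each tested histone gene with its SE (vertical axis), sorted within class, in NIH-3T3 (left, TCF-1 induced over normal) and Scid.adh (right, Tcf7 KO over empty vector); filled points have an adjusted p under 0.05. In Scid.adh the H1 points lie at or below 0.01 and all H3 and H4 points lie above 0, while in NIH-3T3 no filled point lies below 0.

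The second comparison addressed loss of Tcf7 in the thymocyte line. Of the 62 members tested in Scid.adh, 19 rose and 5 fell (30.6% and 8.06%), against 15.6% and 15.9% of the 11941 genes tested (edgeR quasi-likelihood test, Benjamini-Hochberg adjustment). The rises were all among core histone genes: 6 of 11 H3, 6 of 13 H4, 6 of 17 H2B and 1 of 16 H2A genes. Of the 5 that fell, 4 were H1 genes and the other was Hist1h2ap. The medians were 0.28 for H3, 0.20 for H4, 0.22 for H2B, 0.05 for H2A and -0.19 for H1 on the log2 scale, against -0.00 over all genes. Summed over all members the groups were close, with 11233 and 10642 CPM in the knockout libraries and 10874 and 10835 CPM in the empty vector libraries. Without empty vector replicate 1 or 2 the members' median log2 fold change was 0.16 or 0.14, against 0.17 in the reported fit. Fewer members and fewer of all genes then passed the test. The share of members that rose was closer to that of all genes than in the reported fit. DESeq2 called 9 higher and 2 lower (14.5% and 3.23%), against 7.37% and 9.04% of all genes.

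Among H3 genes, which encode the replication-coupled H3.1 and H3.2 proteins, Hist1h3c had 146 and 148 CPM in the knockout libraries, against 109 and 109 CPM in the empty vector libraries (log2 fold change 0.44, SE 0.07, adjusted p = 5.10e-04 by edgeR). Hist1h3h had 53.9 and 50.7 CPM in the knockout libraries, against 34.3 and 29.1 CPM in the empty vector libraries (log2 fold change 0.72, SE 0.11, adjusted p = 5.10e-04 by edgeR). Both knockout libraries were higher than both empty vector libraries in all 11 tested H3 genes, against 32.8% of all genes tested in Scid.adh. Hist2h3c2 had the largest fold change of the members, 2.82-fold, at low levels, 4.26 and 4.87 CPM in the knockout libraries, against 1.31 and 1.92 CPM in the empty vector libraries. The 2 H3 genes that drew the most counts did not pass the test. Hist1h3b had 321 and 322 CPM in the knockout libraries, against 300.2 and 306 CPM in the empty vector libraries (log2 fold change 0.09), and Hist1h3e had 245 and 243 CPM in the knockout libraries, against 222 and 225 CPM in the empty vector libraries (log2 fold change 0.13).

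Of the H4 and H2B genes, Hist1h4j (log2 fold change 0.42, SE 0.08, adjusted p = 0.00133 by edgeR) and Hist1h2bl (log2 fold change 0.44, SE 0.09, adjusted p = 0.00310 by edgeR) were among the members that rose in both comparisons. Hist1h4j had 136 and 123 CPM in the knockout libraries, against 96.4 and 96.7 CPM in the empty vector libraries. Hist1h2bl had 73.4 and 67.4 CPM in the knockout libraries, against 52.6 and 51.4 CPM in the empty vector libraries. Hist1h4d and Hist1h4h drew the most counts of the H4 genes. Hist1h4d had 535 and 524 CPM in the knockout libraries, against 494 and 512 CPM in the empty vector libraries, and did not pass the test. Hist1h4h had 237 and 211 CPM in the knockout libraries, against 199 and 190.4 CPM in the empty vector libraries, and rose (log2 fold change 0.20). Hist4h4, alone on chromosome 6, had 220.5 and 216 CPM in the knockout libraries, against 189 and 189.8 CPM in the empty vector libraries (log2 fold change 0.20, called). Hist1h2bb and Hist1h2bc drew the most counts of the H2B genes. Hist1h2bb had 164 and 162 CPM in the knockout libraries, against 140.1 and 144 CPM in the empty vector libraries, and rose (log2 fold change 0.20). Hist1h2bc had 161 and 152 CPM in the knockout libraries, against 148 and 145 CPM in the empty vector libraries, and did not pass the test.

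The neighbouring genes Hist1h2ba and Hist1h2aa, known for their testis forms of H2B and H2A, both rose, at low levels. Hist1h2ba had 11.2 and 12.3 CPM in the knockout libraries, against 6.55 and 6.51 CPM in the empty vector libraries (log2 fold change 0.85, SE 0.20, adjusted p = 0.00658 by edgeR). Hist1h2aa had 4.99 and 3.80 CPM in the knockout libraries, against 2.12 and 1.92 CPM in the empty vector libraries (log2 fold change 1.11, SE 0.33, adjusted p = 0.0213 by edgeR). The 2 H2A genes that drew the most counts did not pass the test. Hist1h2ak had 313 and 303 CPM in the knockout libraries, against 295 and 307 CPM in the empty vector libraries, and Hist2h2ac had 321 and 296 CPM in the knockout libraries, against 294 and 305 CPM in the empty vector libraries. Hist1h2ap, which fell, had 20.4 and 19.8 CPM in the knockout libraries, against 26.2 and 28.7 CPM in the empty vector libraries (log2 fold change -0.45). The calls of 6 members were kept under every alternative, apart from the 1.5-fold threshold: Hist1h2ba, Hist1h2bl, Hist1h3a, Hist1h3c, Hist1h3h and Hist1h4j.

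The H1 genes ran the other way. Hist1h1e had 1007 and 971 CPM in the knockout libraries, against 1217 and 1219 CPM in the empty vector libraries (log2 fold change -0.30, SE 0.05, adjusted p = 0.00138 by edgeR). Hist1h1b had 729 and 675 CPM in the knockout libraries, against 843 and 853 CPM in the empty vector libraries (log2 fold change -0.27, SE 0.06, adjusted p = 0.00431 by edgeR). Hist1h1a had 698 and 622 CPM in the knockout libraries, against 755 and 748 CPM in the empty vector libraries (log2 fold change -0.19), and Hist1h1c had 763 and 727 CPM in the knockout libraries, against 864 and 825 CPM in the empty vector libraries (log2 fold change -0.18). In these 4 genes, which are the called falls of the class, the knockout libraries were the lower ones with no overlap, as they were in 33.9% of all genes tested. Of the 5 falls called among all members, 0 were kept under every alternative setting. All 4 H1 falls were lost with no scaling beyond total counts and with loess scaling against level. DESeq2 called 2 of the H1 genes lower. Hist1h1d, which drew the most counts of the members in Scid.adh, had 1257 and 1180 CPM in the knockout libraries, against 1224 and 1193 CPM in the empty vector libraries, and did not pass the test.

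**Figure D3:**
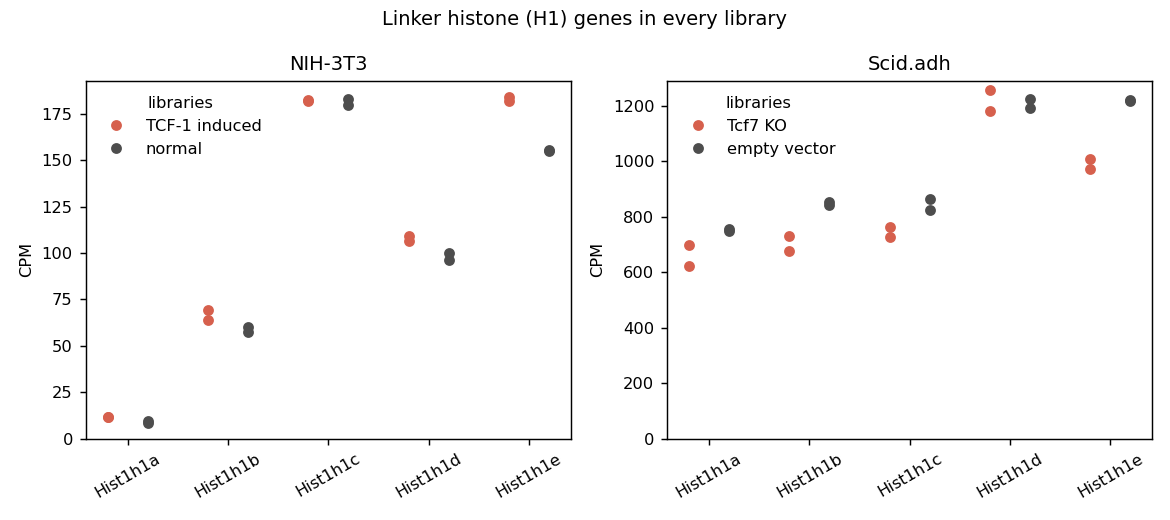
CPM of the 5 tested H1 genes in every library (vertical axis from 0, 1 point per library); NIH-3T3 on the left, Scid.adh on the right. In Scid.adh the Tcf7 KO points lie below the empty vector points for all of these genes except Hist1h1d, and in NIH-3T3 the TCF-1 induced points lie above the normal points for all except Hist1h1c.

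How these falls read depends on the scaling. The other 98 genes within the CPM range of the H1 genes in Scid.adh (714 to 1202 CPM) had a median log2 fold change of -0.17; of them 49.0% fell and 6.12% rose. The H1 median, -0.19, was near that of these 98 genes. With scaling by loess against level, an alternative chosen after seeing the data, 30 members rose and 1 fell, against 12.8% and 12.3% of all genes. Of the 5 H1 genes, 1 rose and 0 fell in that setting (H1 median -0.02). With upper-quartile factors 31 rose and 3 fell, and with no scaling beyond total counts 36 rose and 0 fell, where the median of all genes shifted to 0.08 and 0.13. The core members had a median of 0.20. Beside it, the 9817 other genes within the CPM range of the core members had a median of -0.04, and the 344 other genes with up to 1000 exon bases had a median of -0.05.

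**Figure D4:**
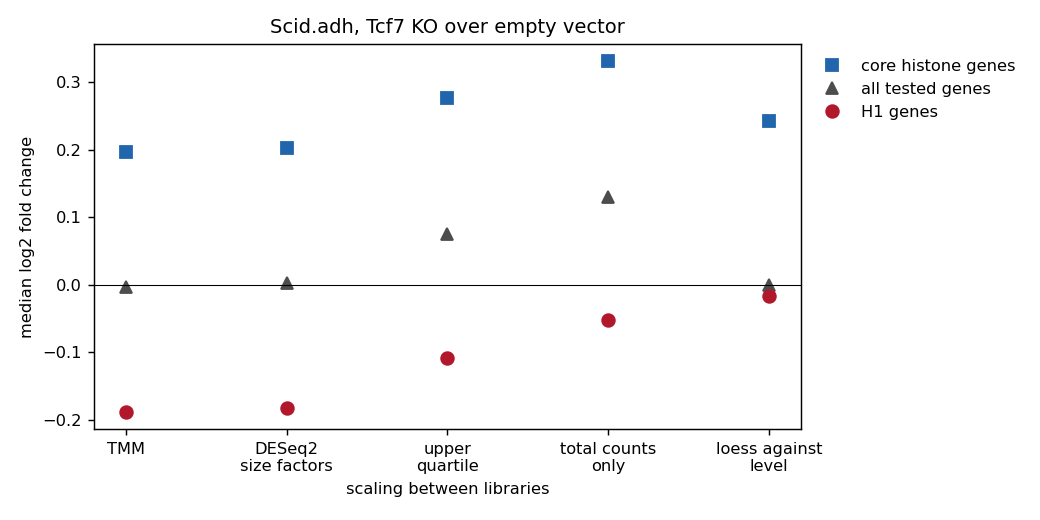
Median log2 fold change, Tcf7 KO over empty vector, of core histone genes, all tested genes and H1 genes in Scid.adh (vertical axis) under 5 scalings between libraries (horizontal axis). The H1 median lies 0.38 below the core median under the first 4 scalings and 0.26 below it with loess against level, where it is at -0.02.

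The balance of H1 to core histone counts does not change with a factor applied to all genes of a library. A shift that depends on level can change it, since the tested H1 genes had higher CPM than the core genes in Scid.adh. The H1 median minus the core median was -0.38 in the reported fit and -0.26 with loess scaling against level. The part of such a shift in the balance was not tested. H1 genes held 39.4 ± 0.29% of histone gene counts in the knockout and 44.9 ± 0.31% with the empty vector (SD, n = 2 each). H3 held 12.7 ± 0.33% in the knockout and 11.0 ± 0.052% with the empty vector. H4 held 19.7 ± 0.033% in the knockout and 17.6 ± 0.23% with the empty vector. H2B held 13.3 ± 0.31% in the knockout and 11.8 ± 0.020% with the empty vector, and H2A held 14.8 ± 0.31% in the knockout and 14.7 ± 0.0056% with the empty vector. In 3T3, H1 held 42.6 ± 0.11% in induced cells and 42.3 ± 0.076% in normal cells. The Wilson 95% interval for H1 was 39.3 to 40.0% in knockout replicate 1 and 44.8 to 45.4% in empty vector replicate 1, for counting error only.

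**Figure D5:**
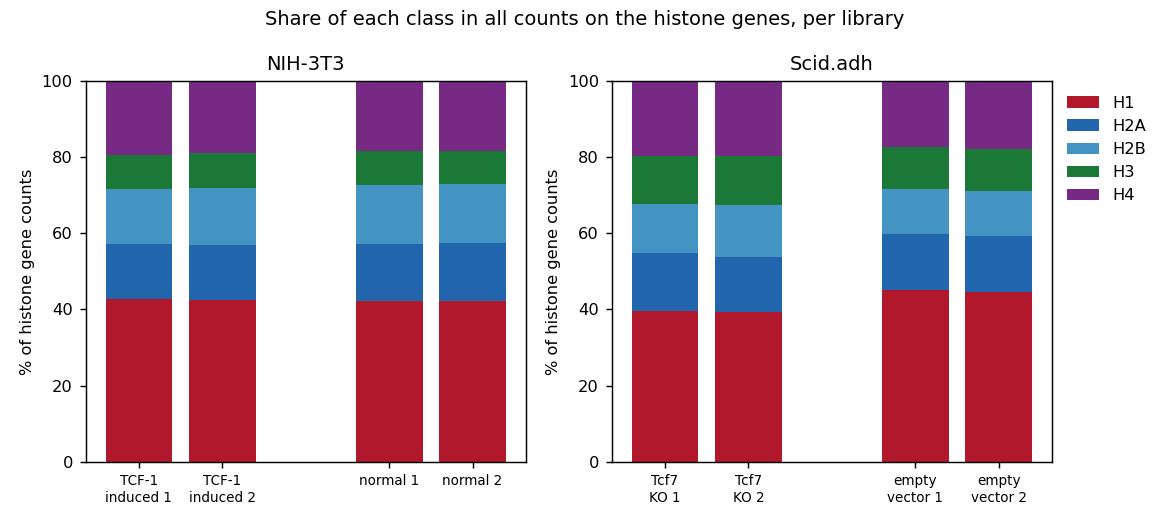
Share of each histone class in all counts on histone genes (vertical axis, percent), 1 bar per library; NIH-3T3 on the left and Scid.adh on the right. H1 takes 39.7% and 39.2% in the Tcf7 KO libraries, against 45.1% and 44.7% in the empty vector libraries, and between 42.2% and 42.7% in all 4 NIH-3T3 libraries.

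Whether the change with TCF-1 differed between the lines was tested in 1 fit of all 8 libraries, as induced minus normal in 3T3 less empty vector minus knockout in Scid.adh. A member higher both in induced 3T3 and in the Tcf7 knockout thus scores above 0. Of 65 members tested, 16 were called above 0 and 1 below, 24.6% and 1.54%, against 14.5% and 14.3% of 15854 genes. The 65 include Hist2h2aa2, Hist2h2bb and Hist2h3b, which had 0 counts in all 4 Scid.adh libraries. With SEs of 256, 69.1 and 130 on the log2 scale, no difference could be called for them. The 16 comprised 6 H3, 6 H4, 3 H2B and 1 H2A genes. The difference was 0.92 on the log2 scale for Hist1h4j (SE 0.19, adjusted p = 3.08e-04 by edgeR's quasi-likelihood test), 1.11 for Hist1h2bl and 0.69 for Hist1h3c. Of the H1 genes, Hist1h1c was called, at -0.22 (0.0063 with loess scaling against level), and the H1 median was -0.11. Leaving out single libraries, the members' median difference ran from 0.12 to 0.25, and that of all genes from 0.02 to 0.07. Fewer members were called above 0 in each of these fits except the one without knockout replicate 2. The share of all genes called above 0 was lower in all of these fits. With loess scaling against level, 24 were above 0 and 1 below, against 14.3% and 9.97% of all genes. With no scaling beyond total counts, 35 were above 0 (53.8%, against 24.2% of all genes). The median of all genes was then at 0.25 in place of 0.07.

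By cluster, the 53 tested Hist1 members in Scid.adh included 17 that rose and all 5 that fell (32.1% and 9.43%, against 15.6% and 15.9% of all genes). In 3T3, 9 of 48 tested Hist1 members rose, and this share, 18.8%, was near the 18.5% of all genes. Along chromosome 13, the largest Hist1 block (29 members at 23531050 to 23764406 on GRCm38) held 8 that rose and 3 that fell of 28 tested in Scid.adh, and the block at 21715763 to 21837530 (19 members) held 6 that rose and 2 that fell of 18 tested. H2A and H2B genes stand head to head in 14 pairs, with 172 to 305 bases between their starts.

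Outside Hist1, the members that did not pass the test within a line are given by value. In 3T3, Hist2h2aa2 had 2.12 and 2.67 CPM in the induced libraries, against 1.75 and 2.47 CPM in the normal libraries. Hist2h2ab had 4.42 and 3.60 CPM in the induced libraries, against 3.50 and 4.60 CPM in the normal libraries, and Hist2h2be had 1.47 and 1.73 CPM in the induced libraries, against 1.06 and 1.09 CPM in the normal libraries. The H3 gene Hist2h3b had 13.9 and 14.8 CPM in the induced libraries, against 14.0 and 13.0 CPM in the normal libraries, and the H3 gene Hist2h3c2 had 1.88 and 1.44 CPM in the induced libraries, against 1.63 and 1.78 CPM in the normal libraries. Their log2 fold changes were 0.09 and -0.02. Hist2h4 had 19.0 and 17.0 CPM in the induced libraries, against 19.5 and 17.9 CPM in the normal libraries. Hist3h2a, the Hist3 gene with the most counts in 3T3, had 27.1 and 24.7 CPM in the induced libraries, against 25.0 and 24.4 CPM in the normal libraries, and in Scid.adh it had 1.70 and 3.80 CPM in the knockout libraries, against 2.22 and 1.07 CPM in the empty vector libraries. Hist3h2ba, an H2B gene, had in Scid.adh 71.1 and 60.8 CPM in the knockout libraries, against 56.9 and 52.6 CPM in the empty vector libraries, and in 3T3 it had 0.648 and 0.577 CPM in the induced libraries, against 0.563 and 0.689 CPM in the normal libraries. In Scid.adh, Hist2h2ab had 18.8 and 16.6 CPM in the knockout libraries, against 15.6 and 15.4 CPM in the empty vector libraries. Hist2h2be had 6.32 and 5.34 CPM in the knockout libraries, against 3.73 and 5.13 CPM in the empty vector libraries. Of the others in Scid.adh, Hist2h3c1 had 11.8 and 10.7 CPM in the knockout libraries, against 8.26 and 9.40 CPM in the empty vector libraries, and Hist2h4 had 103 and 102 CPM in the knockout libraries, against 92.9 and 93.7 CPM in the empty vector libraries.

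Near-identical copies and overlapping exons limit what a count on 1 histone gene means. Of the 70 members, 33 had at least 50% of their windows of 38 bases, the length of the longer read, in no other annotated gene, and 37 had fewer. The median share was 97.8% for H1, 21.9% for H2A, 51.9% for H2B, 40.6% for H3 and 55.8% for H4 genes. Hist1h3h and Hist1h2bl, whose rises are given above, had 5.88% and 12.2% of such windows. The Scid.adh files list 0 reads as not uniquely aligned, and how the authors placed reads that fit several copies is not given in the sources used here. In 26 members, exons overlap another gene. Hist2h2aa1, Hist2h2aa2, Hist2h3b and Hist2h2bb have all exon bases inside exons of other genes of the Scid.adh tables, and these 4 were at 0 in all 4 Scid.adh libraries, whereas no other member was. In 3T3, Hist2h2bb had 63.8 and 67.9 CPM in the induced libraries, against 70.0 and 64.4 CPM in the normal libraries, on exons shared with other genes, among them Gm20628 with 1663 and 1457 counts in the induced libraries and 1670 and 1680 counts in the normal libraries.

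The genes that process histone messages and the genes of S phase were read beside the members, as counts that passed the same edgeR test. All shares in these lists stand against the same background: 15.6% of all genes rose and 15.9% fell in the knockout, and 18.5% rose and 18.3% fell in induced 3T3. Of 26 histone mRNA processing and transcription genes, 1 rose and 7 fell in the knockout (3.85% and 26.9%), with a median log2 fold change of -0.14. Among those that fell were Cpsf3, the nuclease that cuts the message, with 137 ± 9.15 CPM in the knockout and 188 ± 7.02 CPM with the empty vector (SD, n = 2 each), and Nelfe, a subunit of the elongation factor NELF, with 47.9 ± 1.16 CPM in the knockout and 68.8 ± 4.73 CPM with the empty vector. In 3T3, 7 of these 26 rose and 6 fell (26.9% and 23.1%), with a median of 0.01. Nelfe rose there, with 43.7 ± 0.70 CPM in induced cells and 31.8 ± 1.09 CPM in normal cells, as did Ncbp2, a subunit of the cap-binding complex, with 73.6 ± 0.26 CPM in induced cells and 58.8 ± 1.45 CPM in normal cells.

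Of 42 S phase and DNA replication genes, 2 rose and 8 fell in the knockout (4.76% and 19.0%), with a median log2 fold change of -0.11; the share that fell was near that of all genes. Tyms, which makes thymidylate, had 70.6 ± 8.09 CPM in the knockout and 107 ± 5.81 CPM with the empty vector, and Tk1, a thymidine kinase, had 49.5 ± 1.27 CPM in the knockout and 68.4 ± 0.39 CPM with the empty vector. In 3T3, 8 of the 42 rose and 5 fell (19.0% and 11.9%), with a median of 0.09, and the share that rose was near that of all genes. Cdc6, which loads the replicative helicase, rose, with 9.32 ± 0.23 CPM in induced cells and 5.61 ± 0.76 CPM in normal cells. Cdt1, a licensing factor, fell, with 26.5 ± 1.32 CPM in induced cells and 48.8 ± 0.83 CPM in normal cells.

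Of 28 histone chaperone and deposition genes, 0 rose and 7 fell in the knockout (25.0% fell). Among them, Asf1b, a chaperone of H3 and H4, had 40.6 ± 1.72 CPM in the knockout and 56.1 ± 1.44 CPM with the empty vector, and Ipo4, an importin that carries histones, had 30.4 ± 0.18 CPM in the knockout and 43.2 ± 4.68 CPM with the empty vector. In 3T3, 6 of the 28 rose and 7 fell (21.4% and 25.0%). The H3.3 chaperone Daxx rose, with 47.9 ± 0.42 CPM in induced cells and 37.8 ± 0.67 CPM in normal cells, as did Cabin1, a member of the HIRA complex, with 129 ± 3.02 CPM in induced cells and 96.8 ± 4.01 CPM in normal cells.

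Replacement histone genes, which are expressed outside S phase, gave 6 that rose and 1 that fell of 11 tested in 3T3 (54.5% and 9.09%), and 1 that rose and 3 that fell of 9 in Scid.adh (11.1% and 33.3%). In 3T3, H2afj, an H2A variant, had 73.4 ± 1.92 CPM in induced cells and 56.3 ± 0.59 CPM in normal cells, and H2afy2, which encodes a macroH2A, had 40.8 ± 0.35 CPM in induced cells and 30.7 ± 0.48 CPM in normal cells. In Scid.adh, H3f3a, which encodes H3.3, had 38.7 ± 1.37 CPM in the knockout and 53.9 ± 2.48 CPM with the empty vector. H1fx, a linker histone gene outside the clusters, had 10.2 ± 0.86 CPM in the knockout and 3.63 ± 0.15 CPM with the empty vector. Of E2F and checkpoint restraint genes, 2 rose and 2 fell of 12 in 3T3 (16.7% each), near the shares of all genes. They included Trp53, which encodes p53, with 115 ± 5.02 CPM in induced cells and 92.5 ± 2.51 CPM in normal cells, and Cdkn1b, which encodes the inhibitor p27, with 119 ± 1.67 CPM in induced cells and 164.5 ± 1.98 CPM in normal cells. In Scid.adh 1 rose and 2 fell of 11 (9.09% and 18.2%). Rb1, which restrains E2F, had 60.1 ± 5.17 CPM in the knockout and 41.9 ± 5.17 CPM with the empty vector, and E2f4, a repressor E2F, had 193 ± 2.56 CPM in the knockout and 265 ± 1.93 CPM with the empty vector.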

How the data were processed

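Counts per gene were deposited by the authors, 1 file per library, on GRCm38 per the submitters' processing notes, which name STAR 2.5.0a and HTSeq 0.6.1. Per the labels' protocols, total RNA with RIN above 9 gave stranded low-input libraries, read in pairs of 38 and 37 bases. For 3T3, alignments had been merged before counting, per the file headers. The sources used here do not state the annotation release, the strand setting or how reads with several matches were handled. Summary rows of the Scid.adh files were left out (reads in no feature 21.3 to 25.8%, ambiguous 2.20 to 2.44% of all reads, 0 listed as not uniquely aligned). The 3T3 files hold no such rows. Hist2h2aa1, Hist2h2aa2, Hist2h3b and Hist2h2bb hold counts in 3T3 and 0 in Scid.adh. Reads on shared exons may thus have been counted differently in each line, which was not tested.

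Genes were filtered with filterByExpr, scaled by TMM and tested for each line with edgeR 4.0.16 in R 4.3.3 (robust quasi-likelihood F-test, Benjamini-Hochberg adjustment over all genes, call at adjusted p under 0.05). All 8 libraries entered 1 fit for the difference between lines. edgeR's biological coefficient of variation came to 2.41% (3T3) and 5.94% (Scid.adh). The same test was also run on simulated counts with known changes, with 1 coefficient of variation for all genes of a line. Real genes differ in spread, so no result given here rests on that simulation. Class sums, shares and medians have no test. Annotation, exon overlap and stem-loops came from GENCODE M21, promoters from RefSeq. Uniqueness of 38-base windows was computed among annotated transcripts on both strands, ignoring genes that overlap the member, and not over the whole genome as first planned.

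The members and the other gene lists were chosen with earlier results of these data known. Members given with each library's value were, in each line, the 2 with the highest CPM in each class, the 6 largest called rises and 6 largest called falls, and all tested members outside Hist1. Of each other list, up to 2 called genes with the largest change qualified. Alternatives were DESeq2 1.42.0, limma-voom 3.58.1, other scalings and filters, a 1.5-fold threshold, a replicate block, a joint fit, leaving out each library and, added after seeing the data, loess scaling against level.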

Additional observations from a re-analysis of the deposited data

Results flagged for a closer look

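For 17 members the change with TCF-1 differed between the lines by the edgeR test of that difference (induced minus normal in 3T3, less empty vector minus knockout in Scid.adh; Benjamini-Hochberg adjustment over 15854 genes), and each value here is that difference on the log2 scale. Of 65 members tested, 24.6% were called above 0 and 1.54% below, against 14.5% and 14.3% of all genes. Among H3 genes it was 1.44 for Hist2h3c2, 1.10 for Hist2h3c1, 0.82 for Hist1h3h, 0.69 for Hist1h3c, 0.61 for Hist1h3a and 0.44 for Hist1h3i. Among H4 genes it was 0.92 for Hist1h4j, 0.57 for Hist1h4f, 0.52 for Hist1h4c, 0.46 for Hist1h4h, 0.37 for Hist4h4 and 0.30 for Hist1h4b. Among H2B genes it was 1.41 for Hist1h2ba, 1.11 for Hist1h2bl and 0.54 for Hist1h2bn, and for the H2A gene Hist2h2ac it was 0.31. Hist1h1c, at -0.22, was the only H1 gene among them. With upper-quartile factors, 0 H1 genes were called below 0. Hist2h3c2, which had the largest value, held only 13 to 41 counts in each Scid.adh library.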

How the results depend on the processing

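Members called higher in induced 3T3 numbered 12 in the reported fit, 0 with a 1.5-fold threshold, 1 with DESeq2, 7 in the joint fit of 8 libraries, and 4 to 15 when single libraries were left out. In the knockout, 19 were called higher, against 31 with upper-quartile factors, 36 with no scaling beyond total counts, 30 with loess scaling (added after seeing the data), 9 with no filter, 0 with the 1.5-fold threshold, 9 with DESeq2, and 6 to 25 without single libraries. The 5 called lower became 3, 0, 1, 5, 0 and 2 in the same order, and 0 to 6 without single libraries. For the difference between lines, 16 above 0 became 27 with upper-quartile factors, 35 with no scaling and 9 with DESeq2. The 1 below 0 became 0 with upper-quartile factors, no scaling or a minimum mean of 1 CPM. Without single libraries the members' median difference ran from 0.12 to 0.25. Hist1h1c turned from -0.22 to 0.0063 there with loess scaling. With a replicate block the calls were 15 higher and 0 lower in 3T3, 21 and 3 in the knockout, and 15 and 1 between lines; the numbers did not pair the samples (correlation 0.01 in 3T3 and 0.00 in Scid.adh). Summed CPM ratios (log2) in 3T3 were 0.082 for H1 and 0.0901 for H2B without members that overlap another gene, 0.25 for H3 with the more unique members, and 0.20 for H1, 0.0975 for H2A and 0.0878 for H2B without the member of highest CPM. In Scid.adh, with upper-quartile factors and no scaling they were 0.0905 and 0.15 for all members, -0.0952 and -0.0402 for H1, 0.26 and 0.31 for H2B, 0.30 and 0.35 for H3, and 0.26 and 0.31 for H4, and with no scaling 0.16 for H2A. With the more unique members alone, they were -0.0447 for all members, 0.16 for H2B, 0.17 for H3 and -0.0628 for Hist1, and without its top member H3 was 0.26. Hist2 in 3T3 turned to -0.0129 without overlapping members. Without single libraries, ratios ran from -0.0286 to 0.0495 for all members, -0.0395 to 0.0817 for H2A and -0.0373 to 0.0405 for Hist1 in Scid.adh, and from -0.0094 to 0.14 for Hist3 in 3T3. The cause of these shifts was not tested. The share of all genes called moved with the setting as well. In the knockout, 15.6% of all genes rose in the reported fit. This became 20.6% with upper-quartile factors, 24.8% with no scaling and 12.8% with loess scaling. It was 6.79% with no filter, 4.73% with the 1.5-fold threshold and 7.37% with DESeq2. The 15.9% of all genes that fell became 10.2%, 7.68%, 12.3%, 9.3%, 1.33% and 9.04% in the same order. In induced 3T3, 18.5% rose in the reported fit and 10.9% with DESeq2. Genes under about 5 CPM rest on few counts in these libraries, and the lines' tables differ in which overlapping genes hold counts.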
